A study of Mus musculus with 90 samples.

Results

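The 9 genes described here are the MHC class I heavy chains H2-K1, H2-D1, H2-Q4, H2-Q7, H2-T22, H2-T23 and H2-M3, their light chain B2m, and the class I transactivator Nlrc5. They were found by symbol among the 53697 gene identifiers of the count table, and 1 row was taken for each. The samples were 2 mouse tumour cell lines, YUMM2.1 (a melanoma line of C57BL/6 origin) and CT26 (a colon carcinoma line of BALB/c origin), measured by sequencing the 3′ ends of transcripts in 90 samples, 15 groups of 3 per line. Untreated groups received bovine serum albumin (BSA) without IFNγ for 0, 1, 2 or 3 weeks. The study's figure legend gives the 0 week control as no treatment. Naive groups had no earlier interferon and received IFNγ for 2 or 24 h, and chronic groups grew for 1, 2 or 3 weeks in IFNγ at 50 IU/mL, with harvest either before any rechallenge or 2 or 24 h after fresh IFNγ. All cells were cultured lines with no genetic change or drug named in the labels, and they were plated 48 h before harvest. The labels describe triplicate experiments without saying whether cultures were separate, so p-values measure the spread between these samples, which may be partly technical.

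MHC class I molecules carry short peptides from inside the cell to its surface, where CD8 T cells inspect them. A heavy chain reaches the surface only with B2m and a peptide, which is cut by the proteasome and pumped into the endoplasmic reticulum by the TAP transporter. IFNγ induces the transcription factor IRF1, and NLRC5 joins the factors bound to class I promoters and raises their transcription. H2-K1 and H2-D1 are the classical, highly variable chains, whereas H2-Q4 (Qb-1), H2-Q7 (Qa-2), H2-T22, H2-T23 (Qa-1) and H2-M3 are non-classical chains with restricted ligands or receptors.

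The promoters of 8 of the 9 genes were read from RefSeq (GRCm38.p6, 250 bases before to 50 bases after the annotated start, C57BL/6 sequence). Shown are 5 of them, picked with the results below known. H2-D1, H2-T22, H2-M3 and B2m were called higher at 24 h in both lines, and H2-T23 was not called there. Capitals mark matches to the letters searched on both strands. These were the ISRE core (GAAA, any 2 bases, GAAA, bound by IRF factors), CCAAT (bound by NF-Y), the X2 core TGACG (part of the module through which NLRC5 acts), an NF-kB site GGGGATTCC, and GTTTCACTTCT, the longest word shared by the windows of H2-K1, H2-D1, H2-Q4, H2-Q7 and H2-M3, which was taken from these sequences after they were seen. It covers 11 letters.
H2-D1, chr17:35262844-35263143, plus strand: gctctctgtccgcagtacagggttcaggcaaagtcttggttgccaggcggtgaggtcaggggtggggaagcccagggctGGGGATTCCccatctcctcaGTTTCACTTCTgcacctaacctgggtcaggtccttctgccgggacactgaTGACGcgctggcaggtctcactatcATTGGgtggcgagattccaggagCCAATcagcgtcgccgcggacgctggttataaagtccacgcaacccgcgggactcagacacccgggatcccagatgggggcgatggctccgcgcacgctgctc
H2-T22, chr17:36042693-36042992, minus strand: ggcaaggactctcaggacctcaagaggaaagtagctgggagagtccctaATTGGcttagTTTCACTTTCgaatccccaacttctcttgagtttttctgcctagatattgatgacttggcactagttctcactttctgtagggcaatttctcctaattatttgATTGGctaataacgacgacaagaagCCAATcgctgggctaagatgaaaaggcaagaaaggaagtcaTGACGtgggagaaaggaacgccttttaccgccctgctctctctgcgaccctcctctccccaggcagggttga
H2-T23, chr17:36032652-36032951, minus strand: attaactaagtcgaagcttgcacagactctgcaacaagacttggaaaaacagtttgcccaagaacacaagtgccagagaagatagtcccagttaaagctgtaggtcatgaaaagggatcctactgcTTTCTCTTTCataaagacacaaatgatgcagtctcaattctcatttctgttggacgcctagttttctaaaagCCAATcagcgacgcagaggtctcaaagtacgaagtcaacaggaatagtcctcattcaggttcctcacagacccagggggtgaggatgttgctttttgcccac
H2-M3, chr17:37269984-37270283, plus strand: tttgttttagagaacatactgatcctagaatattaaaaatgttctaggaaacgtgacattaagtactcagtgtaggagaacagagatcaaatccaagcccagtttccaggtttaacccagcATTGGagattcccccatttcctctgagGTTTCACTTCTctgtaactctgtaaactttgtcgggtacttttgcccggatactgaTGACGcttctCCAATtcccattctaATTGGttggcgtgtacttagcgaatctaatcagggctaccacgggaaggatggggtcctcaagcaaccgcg
B2m, chr2:122147437-122147736, plus strand: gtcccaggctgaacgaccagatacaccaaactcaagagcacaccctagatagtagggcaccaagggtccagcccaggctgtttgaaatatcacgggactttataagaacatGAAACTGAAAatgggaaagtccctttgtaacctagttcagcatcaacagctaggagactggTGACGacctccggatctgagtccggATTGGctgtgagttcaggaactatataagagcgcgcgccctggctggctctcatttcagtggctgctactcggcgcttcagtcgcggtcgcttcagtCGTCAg

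By its exact letters, the ISRE core occurred in 3 of the 8 windows (H2-T22, H2-T23 and B2m) and in 3.49% of 27025 mouse promoters of the same length. CCAAT occurred in all 8 windows and in 37.9% of promoters, and the X2 core in 7 windows, all but H2-T23, against 21.0%. The shared 11-letter word, present in 5 windows by its choice, was in 0.0666% of all promoters, and the NF-kB site was in the windows of H2-K1, H2-D1 and H2-Q7 against 0.259%. Read on the other strand, the shared word is AGAAGTGAAAC, which is close to the ISRE core without matching its letters. Variants were not searched, so a window without a match may still hold such a site. A match describes the letters in these windows and no binding was measured.

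A transcript counted by its 3′ end can be told from its relatives only where that end differs. Words of 31 bases were taken from the last 300 bases of the annotated protein-coding transcripts (GRCm38). No word of H2-M3, B2m or Nlrc5 occurred anywhere in a transcript of another gene. H2-Q7 shared 1.0% of its words, H2-K1 23.6% with 36 genes (mostly H2-D1) and H2-D1 34.7% with 675 genes. H2-T22 shared 66.5% with the near-identical class I gene H2-T10 alone, H2-Q4 64.1% with 139 genes and H2-T23 75.2% with 620 genes, Rab33b first among them at 38.5%. Counts of H2-T23, H2-Q4 and H2-T22, and to a smaller share those of H2-D1 and H2-K1, are therefore uncertain as to gene. H2-T10 itself had at most 26 counts in any sample. On chromosome 17, H2-T22 (36037128 to 36042747) and H2-T23 (36029773 to 36032855) also overlap the antisense gene A930015D03Rik, and on chromosome 2 B2m (122147686 to 122153083) overlaps Patl2 on the other strand. The reference is C57BL/6, so heavy chains were compared within a line only.

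**Figure D1:**
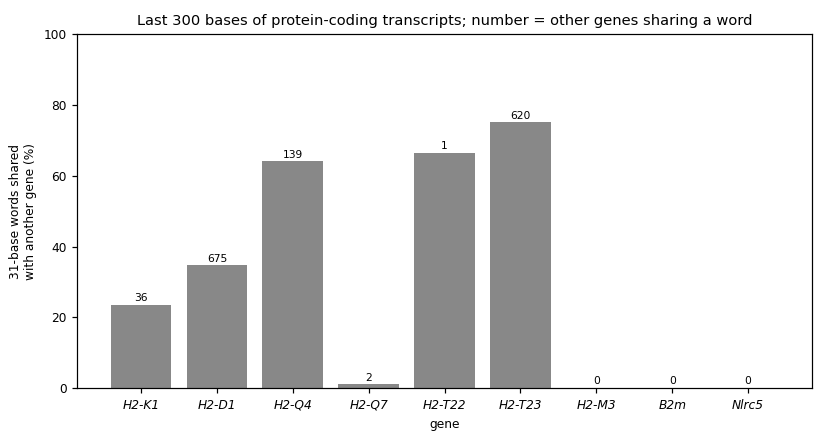
Percentage of the 31-base words in the last 300 bases of each gene's protein-coding transcripts that also occur anywhere in another gene's transcripts (y axis). The 9 genes are on the x axis, with the number of other genes above each bar. H2-T23 reaches 75.2%, H2-T22 66.5% and H2-Q4 64.1%, and B2m, H2-M3 and Nlrc5 are at 0.

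The smallest and largest libraries held 274719 and 3161276 counts for YUMM2.1, and 295157 and 2205285 counts for CT26. 1 YUMM2.1 sample (3 weeks of IFNγ without rechallenge, replicate 3) and 2 CT26 samples (1 and 3 weeks without rechallenge, replicate 3 of each) held under 25% of their line's median total. Of the melanocytic markers Mlana, Pmel, Tyr, Dct, Mitf and Sox10, only Mitf and Sox10 had a median above 1 CPM (counts per 1000000 counts of the sample) in YUMM2.1, and of the epithelial markers Krt8, Krt18, Krt20, Epcam and Cdh1 only Krt18 and Krt20 did in CT26. The melanocytic list also had Dct and Mitf above a median of 1 CPM in CT26, Dct being above it in CT26 and not in YUMM2.1, and its sum was between 0.636 and 16.9 CPM there against 15.6 to 69.8 CPM in YUMM2.1. No epithelial marker passed a median of 1 CPM in YUMM2.1. The leukocyte markers Ptprc, Cd3e and Csf1r had medians of at most 1 CPM in both lines. In the endothelial pair, Cdh5 had a median of at most 1 CPM while Pecam1 did not, and the pair summed to between 223 and 512 CPM over all samples. In bulk samples, fewer cells of a type and less RNA per cell cannot be told apart.

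Levels below are CPM of the sample's total count, and fold changes are log2 fold changes from the model fitted over all 15 groups of a line. A gene is called when its Benjamini-Hochberg adjusted p over all genes tested in that line is below 0.05. In YUMM2.1, 9589 genes were tested, including 7 of the 9 members (H2-Q4 and H2-Q7 had too few counts). In CT26, 8516 genes including all 9 members were tested. Passing this filter depends on expression in at least some groups, so the counts of called members describe these genes and are not a test of them as a set.

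In naive cells, no member was called after 2 h of IFNγ in either line, while 0.24% of genes tested were called higher in YUMM2.1 (0% lower) and 0.235% in CT26 (0% lower). Without being called, H2-M3 in YUMM2.1 had 2.95 to 4.48 CPM at 2 h against 0 to 1.86 CPM in the controls. B2m and Nlrc5 in CT26 also lay above all of their controls at 2 h. At an unadjusted p below 0.05, 348 genes stood in YUMM2.1 and 309 in CT26, among them H2-M3 in YUMM2.1 (unadjusted p = 0.0244 by edgeR, adjusted p = 1) and Nlrc5 in CT26 (unadjusted p = 0.0122, adjusted p = 1). After 24 h, 5 members were called higher in each line and none lower, against 0.855% of all genes called higher in YUMM2.1 and 1.77% in CT26, and 0.0313% and 0.27% called lower. B2m, H2-D1, H2-T22 and H2-M3 were called in both lines, Nlrc5 in YUMM2.1 only and H2-K1 in CT26 only, by the threshold and not by a test between the lines.

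Under continuous IFNγ, compared with the BSA culture of the same age, the number called higher in YUMM2.1 was 6 at 1 week, 5 at 2 weeks and 6 at 3 weeks. The shares of all genes called higher were 0.657%, 0.897% and 0.72%. In CT26 the numbers were 4, 4 and 7, against 0.658%, 0.892% and 3.44% of all genes. No member was called lower at any of these times in either line. Scaling by library totals alone in place of TMM moved the median of all genes by 0.20 in log2 at 3 weeks in CT26 and by 0.14 in each of its comparisons of 3 weeks with 2 weeks and with naive 24 h, and changes in those comparisons are relative to the TMM centre. Of all YUMM2.1 genes, 0.073%, 0.219% and 0.25% were called lower at 1, 2 and 3 weeks, and of all CT26 genes 0.0705%, 0.728% and 3.84%.

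**Figure D2:**
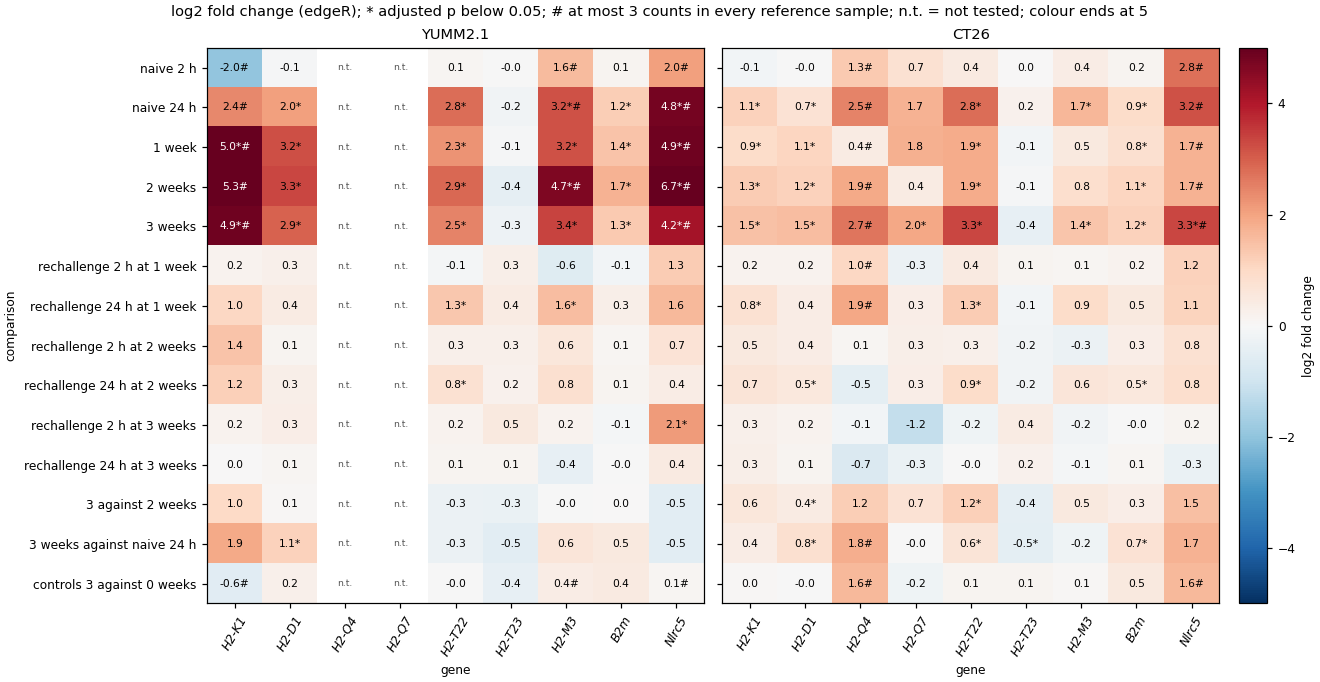
Log2 fold change of each gene (x axis) in each comparison (y axis) in YUMM2.1 and CT26, with the adjusted p marked by an asterisk when below 0.05, a hash where every reference sample had at most 3 counts and n.t. where a gene was not tested. The 24 h and 1 to 3 week rows hold the called increases of B2m, H2-D1 and H2-T22, the 2 h rows hold 1 call, and the 24 h rechallenge at 3 weeks holds none in either line.

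B2m, the light chain needed by every class I molecule, was expressed in all 45 samples of each line. In untreated YUMM2.1 cells at 0 weeks the 3 samples had 843, 616 and 845 CPM, and after 24 h of IFNγ 1455, 1841 and 2222 CPM, so all treated samples lay above all untreated ones. The log2 fold change was 1.24 ± 0.16 (SE, adjusted p = 4.76e-07 by edgeR). In CT26 the untreated samples had 728, 733 and 715 CPM and the 24 h samples 1152, 1206 and 1683 CPM, again without overlap (log2 fold change 0.92 ± 0.13, adjusted p = 3.14e-06). At 2 h B2m had 830 ± 72.7 CPM (SD, n = 3) in YUMM2.1 and 764 ± 12.2 CPM in CT26, and it was not called in either.

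With continuous IFNγ, YUMM2.1 held B2m at 2634 ± 179, 2522 ± 384 and 2698 ± 272 CPM at 1, 2 and 3 weeks, each against a control of 956 ± 36.9, 756 ± 39.9 and 1018 ± 55.1 CPM. The log2 fold changes were 1.41 ± 0.16, 1.73 ± 0.17 and 1.30 ± 0.16, all called. In CT26 the levels were 1553 ± 205, 1766 ± 283 and 2409 ± 379 CPM against 854 ± 49.1, 800 ± 12.5 and 955 ± 71.4 CPM, with log2 fold changes of 0.79 ± 0.13, 1.06 ± 0.13 and 1.15 ± 0.13. The CT26 call at 1 week was lost without replicate 1 of every group (adjusted p = 0.263). Untreated CT26 cells had 725 ± 9.58 CPM at 0 weeks and 955 ± 71.4 CPM at 3 weeks, a difference of 0.47 in log2 that missed the threshold (adjusted p = 0.0743 by edgeR) and was called under 5 alternative settings given below.

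Over the 15 groups, B2m ran from 756 ± 39.9 CPM (2 week control) to 3265 ± 221 CPM (1 week plus 24 h) in YUMM2.1. The naive 24 h group, at 1839 ± 383 CPM, did not overlap the group beneath it, a control at 1018 CPM, and all 9 chronic groups stood above it in mean. In CT26 the lowest group was the 0 week control and the highest 2 weeks plus 24 h at 2555 ± 83.2 CPM. Its 2 week plus 2 h group (2208 ± 158 CPM) did not overlap the group beneath it, nor did naive 24 h, the 2 week control and naive 2 h. Most neighbours overlapped in range, 12 of 14 pairs in YUMM2.1 and 10 of 14 in CT26.

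H2-D1, a classical heavy chain with 34.7% of its 3′ words shared, rose in YUMM2.1 at 24 h and at 1, 2 and 3 weeks. The 0 week controls had 20.4, 36.9 and 19.8 CPM and the 24 h samples 99.1, 81.1 and 116 CPM, with no overlap (log2 fold change 2.04 ± 0.21, adjusted p = 4.33e-10 by edgeR). After 3 weeks the samples had 237, 215 and 226 CPM against 23.4, 28.2 and 30.8 CPM in the controls of that age (2.93 ± 0.18, adjusted p = 5.05e-17). At 1 and 2 weeks the log2 fold changes were 3.24 and 3.32, and 3 weeks of IFNγ gave 1.14 more than 24 h in naive cells (± 0.17, adjusted p = 6.47e-05). Over 9 alternatives that difference was between 1.06 and 1.31, and its call was lost without replicate 1 (adjusted p = 0.0615).

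H2-D1 also rose in CT26 at each of these times. The 0 week controls had 151, 193 and 172 CPM and the naive 24 h samples 216, 263 and 356 CPM (log2 fold change 0.74 ± 0.13, adjusted p = 0.00013 by edgeR). At 3 weeks the samples had 553, 606 and 430 CPM against 138, 169 and 177 CPM (1.53 ± 0.13, adjusted p = 1.53e-12), and the groups did not overlap. H2-D1 was 1.53 higher at 3 weeks, 1.16 at 2 weeks and 1.08 at 1 week, each relative to its own control. The 3 week level exceeded that at 2 weeks by 0.43 ± 0.12 (adjusted p = 0.0482), a call lost in 4 of 9 alternatives, with adjusted p up to 0.597. Against naive 24 h it was 0.78 higher (adjusted p = 0.000262), lost in 3 of 9 with adjusted p up to 0.0951.

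H2-K1, the other classical heavy chain, was close to the detection limit in YUMM2.1. A count was found in 3 of the 12 untreated samples, with at most 1 count in each. At 1 week the IFNγ samples had 20, 12 and 0 counts, at 2 weeks 0, 3 and 12, and at 3 weeks 11, 2 and 4. With the 3-count floor in each control sample, the IFNγ group mean was at least 4.90-fold higher at 1 week (adjusted p = 0.00288 by edgeR) and at least 6.92-fold at 3 weeks (adjusted p = 0.0121). These folds leave out the spread of the IFNγ samples, which ran from 0 to 20 counts at 1 week. H2-K1 was not called at 24 h or at 2 weeks, and the 3 week call was lost whichever replicate number was left out and without the low-depth samples (adjusted p up to 0.294). The 1 week call was lost without replicate 1 and without replicate 2 (adjusted p up to 0.317).

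In CT26, H2-K1 was expressed in every sample. The 0 week controls had 43.2, 50.8 and 48.9 CPM and the naive 24 h samples 86.7, 77.6 and 135 CPM (log2 fold change 1.14 ± 0.21, adjusted p = 0.000326 by edgeR). After 3 weeks the samples had 167, 154 and 112 CPM against 36.4, 46.8 and 54.97 CPM, without overlap (1.47 ± 0.21, adjusted p = 1.47e-06). At 1 and 2 weeks it was higher by 0.92 and 1.25. The 1 week call was lost in 3 of 9 alternatives (adjusted p up to 0.792), and the naive 24 h call without replicate 3 (adjusted p = 0.0583).

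H2-T22, a non-classical chain recognised by some γδ T cells, rose in both lines, with the reservation that 66.5% of its 3′ words are shared with H2-T10. In YUMM2.1 the 0 week controls had 14.99, 23.4 and 17.4 CPM and the 24 h samples 156, 115 and 111 CPM (log2 fold change 2.79 ± 0.21, adjusted p = 1.47e-14 by edgeR). In CT26 they had 11.7, 7.53 and 8.94 CPM and 79.0, 58.2 and 61.3 CPM (2.81 ± 0.21, adjusted p = 5.58e-14). The log2 fold changes of YUMM2.1 at 1, 2 and 3 weeks were 2.26, 2.86 and 2.49, those of CT26 were 1.87, 1.87 and 3.33, and none of these 8 calls, at 24 h or at 1 to 3 weeks in either line, was lost in any alternative run.

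The highest group means of H2-T22 in YUMM2.1 were in rechallenged cells. It reached 252 ± 13.2 CPM at 1 week plus 24 h and 208 ± 3.92 CPM at 2 weeks plus 24 h, and these 2 groups overlapped neither each other nor the third, 2 weeks plus 2 h at 141 ± 10.5 CPM. CT26 at 3 weeks without rechallenge had 94.4, 138 and 102 CPM, above its 2 week samples at 52.9, 37.0 and 43.2 CPM (1.19 ± 0.17, adjusted p = 5.09e-06 by edgeR). Against naive 24 h, the CT26 3 week group was 0.64 ± 0.17 higher (adjusted p = 0.0216), a call lost in 5 of 9 alternatives with adjusted p up to 0.413.

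H2-M3, which presents formylated peptides, was low in untreated YUMM2.1, where 9 of 12 samples held a count and none held more than 6. After 24 h the samples had 4, 13 and 33 counts, at least 4.39-fold above the 3-count floor of the controls (adjusted p = 0.000288 by edgeR). The log2 fold change at 1 week was 3.19 ± 0.51 and at 3 weeks 3.39 ± 0.48, while at 2 weeks the controls were at the floor and the increase was at least 6.35-fold. In CT26 the 24 h samples had 40.5, 61.4 and 58.3 CPM against 19.9, 20.1 and 11.9 CPM (1.67 ± 0.27, adjusted p = 1.71e-05). At 3 weeks the log2 fold change was 1.40 ± 0.27 (adjusted p = 0.000463), and at 1 and 2 weeks in CT26 H2-M3 was not called, with 31.2 ± 8.08 and 34.0 ± 6.19 CPM against 22.1 ± 4.06 and 18.1 ± 1.32 CPM.

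H2-T23, which encodes Qa-1, was not called in the naive or chronic comparisons. Because 75.2% of its 3′ words are shared with 620 genes, these counts may come partly from other transcripts, which was not tested. The H2-T23 group means lay between 410 ± 84.3 and 685 ± 85.1 CPM in YUMM2.1 and between 1036 ± 263 and 1375 ± 142 CPM in CT26. The naive 24 h samples had 627, 619 and 523 CPM in YUMM2.1 against 580, 708 and 675 CPM, and in CT26 1487, 1405 and 1128 CPM against 1252, 1162 and 1112 CPM. In YUMM2.1 some groups did not overlap although H2-T23 was not called. The 2 week IFNγ samples had 553, 465 and 509 CPM against 619, 654 and 781 CPM in their controls (log2 fold change -0.44 ± 0.14, adjusted p = 0.13 by edgeR), and this was called lower under 2 alternatives, DESeq2 and the compared groups alone. The 3 week IFNγ samples had 452, 465 and 313 CPM, below every naive 24 h sample (-0.52 ± 0.14, adjusted p = 0.0704), and were called lower under 3 alternatives. The untreated cells themselves had 483, 454 and 480 CPM at 3 weeks, below all of the 0 week samples (-0.43 ± 0.13, adjusted p = 0.191), a difference called under 3 alternatives. Its single call, lower at 3 weeks than at naive 24 h in CT26 by 0.50 ± 0.15 (adjusted p = 0.0468 by edgeR), was lost in 5 of 9 alternatives, including without the low-depth samples.

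H2-Q4 and H2-Q7 were scarce. H2-Q4 had a count in 3 of 12 untreated and 17 of 33 IFNγ samples of YUMM2.1, with at most 4 counts, and in 6 of 12 and 24 of 33 samples of CT26, with at most 9. H2-Q7 had at most 8 counts in YUMM2.1. In CT26, H2-Q7 had 3, 2 and 6 counts in the 3 week controls and 12, 7 and 3 in the 3 week IFNγ samples, or 2.28, 1.42 and 2.75 CPM against 11.1, 9.04 and 10.2 CPM (log2 fold change 1.95 ± 0.58, adjusted p = 0.0301 by edgeR). That call was lost in 4 of 9 alternatives, with adjusted p up to 0.269, and a difference in H2-Q4 was not detectable at this depth.

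Nlrc5, the transactivator, was at or under 1 count in every untreated YUMM2.1 sample and at or under 3 counts in every untreated CT26 sample. In YUMM2.1, 24 h of IFNγ gave 11, 8 and 16 counts, and the 3 samples had 12.8, 7.82 and 6.83 CPM, at least 3.84-fold above the floor of the controls (adjusted p = 0.000658 by edgeR). At 1, 2 and 3 weeks the group means were at least 4.59-, 3.29- and 3.96-fold above the floor, all called, and each of those 3 calls was lost without replicate 1 (adjusted p up to 0.399). The 3 week samples had 15, 4 and 0 counts, the last in the sample of 274719 counts.

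In CT26, Nlrc5 had 1, 1 and 5 counts at naive 24 h and was not called. It was called at 3 weeks, where the samples held 15, 9 and 0 counts, the last in the low-depth replicate 3, at least 4.41-fold above the floor (adjusted p = 0.00216 by edgeR). That call was lost without replicate 1 and without replicate 2 (adjusted p up to 0.168). Between 24 h and 3 weeks, the level in CT26 was 2.43 ± 1.15 and 8.50 ± 7.45 CPM, a difference that was not called.

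**Figure D3:**
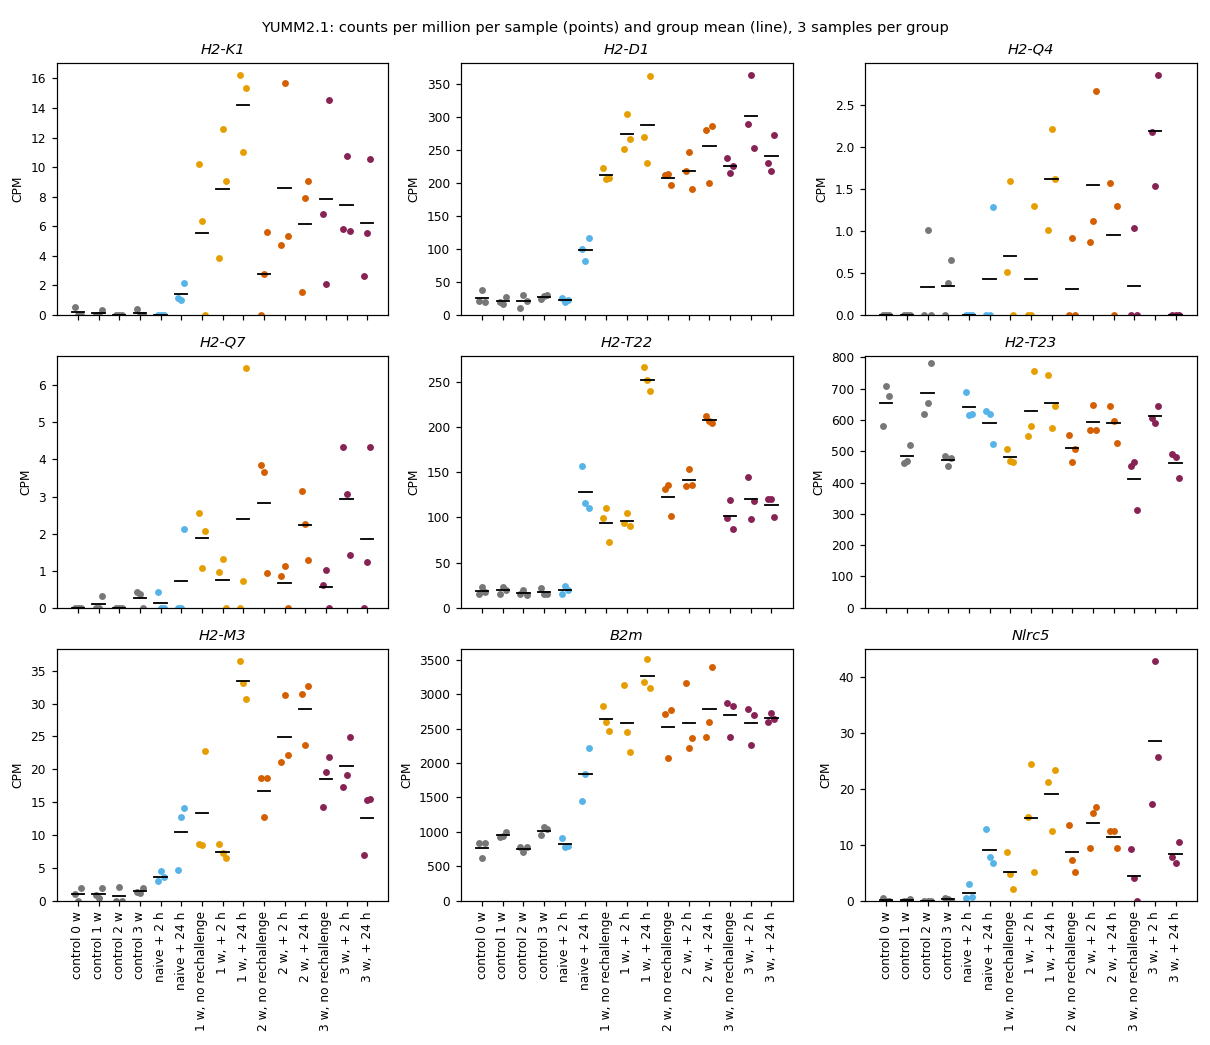
CPM of the 9 genes (y axis, linear from 0) in each of the 3 samples of the 15 YUMM2.1 groups (x axis, points), with the group mean as a line. B2m moves from 756 to 1018 CPM in the controls to 1839 CPM and more after 24 h. The group means of H2-T23, with 75.2% of its 3′ words shared with other genes, stay between 410 and 685 CPM.

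**Figure D4:**
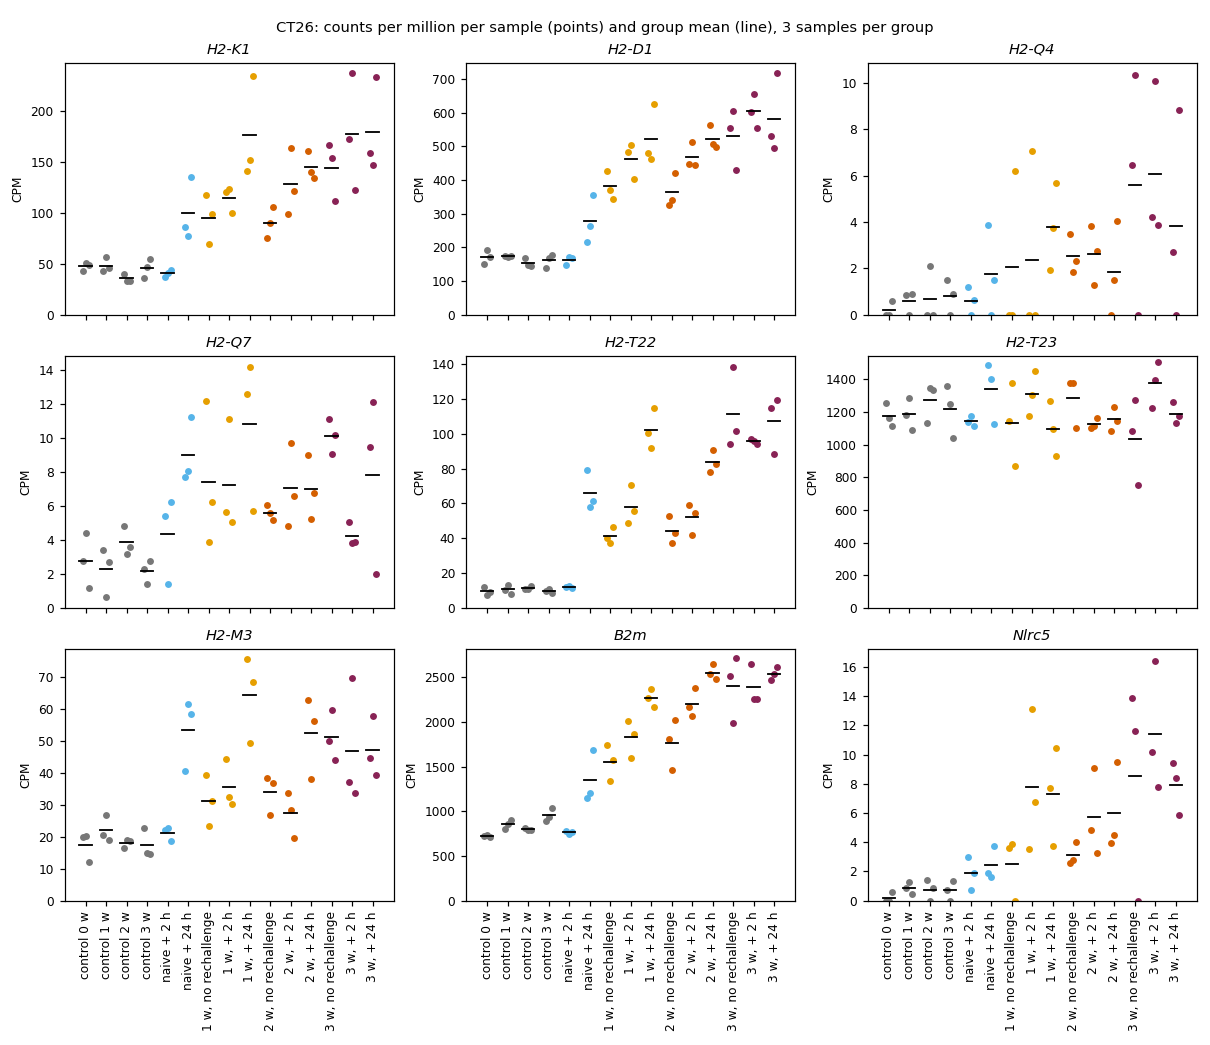
The same 9 genes in CT26, CPM per sample (points) and group mean (line) over the 15 groups. B2m moves from 725 to 955 CPM in the controls to 1347 CPM and more after 24 h, and H2-T22 from about 11.3 CPM at most to 111 CPM at 3 weeks.

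Few members were called after fresh IFNγ on cells already kept in it. After 1 week, 24 h of rechallenge raised H2-T22 and H2-M3 in YUMM2.1 (2 members, against 1.12% of genes called higher) and H2-K1 and H2-T22 in CT26 (2 members, against 0.928%). None was called lower, against 0.302% of genes in YUMM2.1 and 0.388% in CT26. H2-T22 was 1.34 ± 0.16 higher in log2 in YUMM2.1 and 1.26 ± 0.18 in CT26. H2-M3 was 1.56 ± 0.37 higher in YUMM2.1 (adjusted p = 0.0119 by edgeR), a call lost in 3 of 9 alternatives with adjusted p up to 0.557. H2-K1 in CT26 was 0.78 ± 0.20 higher (adjusted p = 0.0318), lost in 4 of 9.

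After 2 weeks, 24 h of rechallenge raised H2-T22 in YUMM2.1 (1 member, against 0.532% of genes) by 0.77 ± 0.16, a call lost without replicate 1 and without replicate 3 (adjusted p up to 0.188 by edgeR). In CT26 it raised H2-D1 by 0.51 ± 0.12, H2-T22 by 0.90 ± 0.16 and B2m by 0.52 ± 0.13 (3 members, against 0.599%). None was called lower there, where 0.0834% of YUMM2.1 genes and 0.0587% of CT26 genes were. The H2-D1 call was lost in 3 of 9 alternatives, that of B2m in 2 and that of H2-T22 without replicate 2. At 3 weeks, 24 h of rechallenge gave no called member and no called gene at all in either line (0% of genes). At an unadjusted p below 0.05, 349 genes stood in YUMM2.1 and 442 in CT26. DESeq2 called no member either.

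At 2 h of rechallenge the only call was Nlrc5 in YUMM2.1 at 3 weeks (1 member, against 0.876% of genes called higher). Its samples had 24, 56 and 36 counts against 15, 4 and 0, a log2 difference of 2.12 ± 0.50 (adjusted p = 0.0171 by edgeR), and the call was lost in 5 of 9 alternatives with adjusted p up to 0.476. At 1 and 2 weeks the YUMM2.1 shares of genes called higher after 2 h were 0.501% and 0.417%, and those of CT26 0.364% and 0.294%, with 0.0117% at 3 weeks, and no member was called. The shares called lower after 2 h were 0.115%, 0.0104% and 0.209% of YUMM2.1 genes at 1, 2 and 3 weeks, and 0.0117%, 0.0117% and 0% of CT26 genes.

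**Figure D5:**
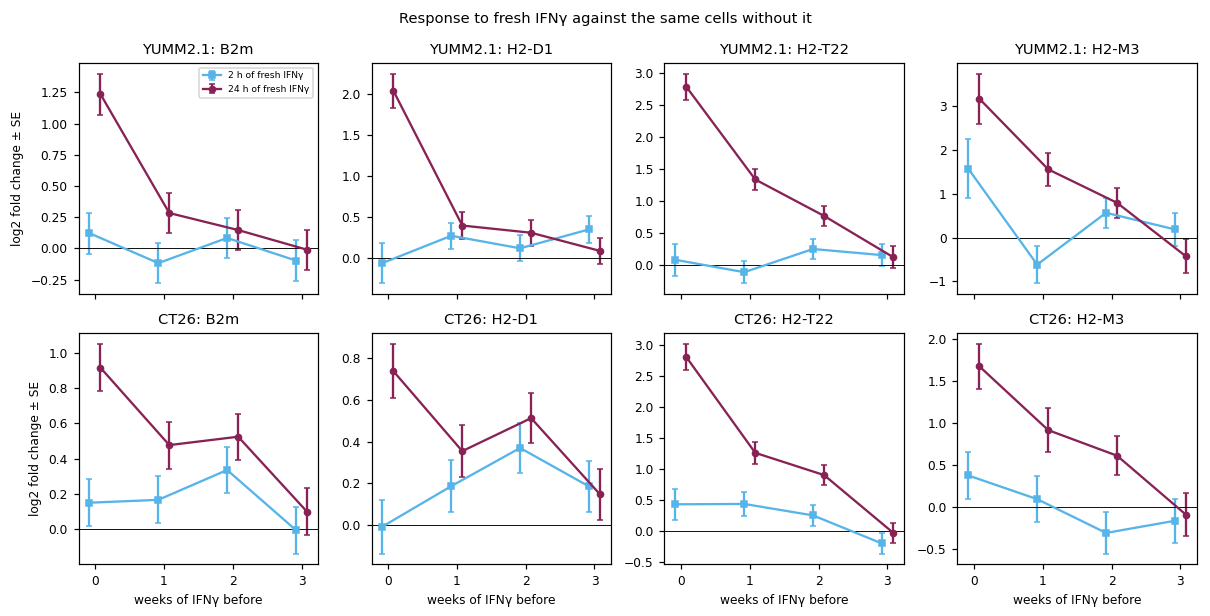
Log2 fold change ± SE (y axis) after 2 h (squares) or 24 h (circles) of fresh IFNγ, for cells that had 0 to 3 weeks of IFNγ before (x axis), against the same cells without fresh IFNγ, 3 samples per group. The reference is untreated cells at 0 weeks and cells already in IFNγ at the later times. The 24 h response of B2m in YUMM2.1 falls from 1.24 to near 0, that in CT26 falls from 0.92 to 0.10, and H2-T22 and H2-M3 in both lines and H2-D1 in YUMM2.1 have smaller responses at 3 weeks than in naive cells by the interaction test, which did not call H2-D1 in CT26 (-0.59).

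Whether the 24 h response differs between cells after 3 weeks of IFNγ and naive cells was tested as an interaction. The naive response starts from untreated cells, and that at 3 weeks from cells already in IFNγ. In YUMM2.1 the difference, 3 weeks minus naive, was -1.95 for H2-D1, -2.66 for H2-T22, -3.60 for H2-M3 and -1.25 for B2m in log2 (4 members, against 0.615% of genes called lower), and H2-K1, H2-T23 and Nlrc5 were not called. In CT26 it was -2.83 for H2-T22, -1.76 for H2-M3 and -0.82 for B2m (3 members, against 1.09%), and -0.59 for H2-D1, which was not called (adjusted p = 0.139 by edgeR). The interaction uses the same samples as the naive 24 h and 3 week comparisons above. In YUMM2.1 the naive controls of H2-M3 were at the 3-count floor. Group means ran from naive control to naive 24 h, then from 3 weeks to 3 weeks plus 24 h, as follows. In YUMM2.1 H2-D1 went 25.7 to 98.7, then 226 to 240 CPM. B2m went 768 to 1839, then 2698 to 2655 CPM. H2-T22 went 18.6 to 127, then 102 to 114 CPM, and H2-M3 0.977 to 10.5, then 18.6 to 12.6 CPM. In CT26 H2-T22 went 9.38 to 66.2, then 111 to 108 CPM. H2-M3 there went 17.3 to 53.4, then 51.2 to 47.2 CPM, and B2m 725 to 1347, then 2409 to 2543 CPM. For the 2 h response no member was called in either line, against 0.0417% of genes called higher and 0.073% lower in YUMM2.1, and 0.0117% and 0.2% in CT26.

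Controls kept for 3 weeks instead of 0 weeks gave no called member in either line, where 0.24% of genes were called higher and 0.271% lower in YUMM2.1, and 0.564% and 0.341% in CT26. Against naive 24 h, the 3 week IFNγ level called 1 member higher in YUMM2.1 (H2-D1, against 0.177%) and 3 higher and 1 lower in CT26 (against 1.37% and 3.46%). B2m was 0.71 ± 0.13 higher there in CT26 (adjusted p = 0.00101 by edgeR), a call lost in 2 of 9 alternatives with adjusted p up to 0.137. Between 2 and 3 weeks, no member was called in YUMM2.1 (0% of genes higher and 0.073% lower) and 2 were called higher and none lower in CT26 (against 1.59% and 1.57%).

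B2m and Nlrc5, which are not heavy chains, were also compared between the lines. Their response at 24 h differed by -0.29 ± 0.23 for B2m and -1.42 ± 2.22 for Nlrc5 in log2 (CT26 minus YUMM2.1, adjusted p = 0.794 and 0.935 by edgeR), and at 3 weeks by -0.07 ± 0.23 and -0.68 ± 0.98 (adjusted p = 1 and 0.988). Neither gene was called in either comparison, and Nlrc5 is measured from few counts.

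The rest of the presentation pathway was read from 4 lists. All 8 genes of peptide supply and transport were called higher in CT26 at 24 h and at 3 weeks and in YUMM2.1 at 24 h, and 7 of the 8 at 3 weeks in YUMM2.1. Their median log2 fold change was 4.10 at 24 h and 2.78 at 3 weeks in YUMM2.1 and 2.53 and 2.38 in CT26, beside all-gene medians near 0. With the YUMM2.1 genes whose controls held at most 3 counts set to their lower bounds, that line's median became 2.76 at 24 h and 2.46 at 3 weeks. Tap2, a chain of the peptide transporter, had 0 counts in the 3 YUMM2.1 controls and 12, 5 and 18 after 24 h, at least 3.71-fold higher (adjusted p = 0.00129 by edgeR). It was the gene not called at 3 weeks in YUMM2.1, with 14, 2 and 2 counts against 1, 2 and 2 (adjusted p = 0.0741), and in CT26 it was 2.09 higher at 24 h and 2.59 at 3 weeks. The immunoproteasome subunits Psmb9 and Psmb8 were at least 34.4- and 10.3-fold higher at 24 h in YUMM2.1, and Tap1, the partner of Tap2, at least 5.08-fold. In CT26 their log2 fold changes at 24 h were 5.04, 3.47 and 3.12. At 3 weeks Psmb9 was 5.15 and 4.94 higher, Psmb8 5.38 and 4.01, and Tap1 3.65 and 2.97, with YUMM2.1 first. Erap1, which trims peptides, was 3.62 and 2.80 higher at 24 h and 2.51 and 2.17 at 3 weeks.

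Of 5 assembly chaperones, only Tapbp (tapasin, which bridges TAP and the heavy chain) was called. It was higher at 24 h by 3.73 ± 0.36 (YUMM2.1) and 2.81 ± 0.25 (CT26) and at 3 weeks by 2.37 and 2.51. Of the transcription factors of class I promoters, 8 passed the filter for YUMM2.1 and 7 for CT26, and Irf1 was called higher in both lines, by 2.82 ± 0.23 in YUMM2.1 at 24 h and 2.31 ± 0.27 in CT26, and at 3 weeks by 1.47 and 2.53. Of the 16 other class I genes, 3 were tested in each line and none was called higher. H2-Q6 was called lower in CT26 at 24 h, with 5, 16 and 8 counts in the controls and 0, 0 and 0 after IFNγ, and its close relatives make the assignment of these reads uncertain.

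Across the 15 group means of each line, the genes whose log2 CPM followed B2m most closely by the smaller of the 2 Pearson coefficients were Psmb8 (r = 0.98 in YUMM2.1 and 0.97 in CT26), Psmb9 (0.98 and 0.95) and Casp1 (0.95 and 0.95), among 7803 genes compared. H2-K1 was followed most closely by Parp11 (0.95 and 0.96), Tap1 (0.94 and 0.95) and Ifi204 (0.94 and 0.96), and Nlrc5 by Parp12 (0.96 and 0.95), Gm4841 (0.95 and 0.95) and Tap1 (0.96 and 0.94). These coefficients describe 15 points that share libraries and control groups and carry no p. In YUMM2.1 no untreated sample held over 1 count of H2-K1 or of Nlrc5. Their coefficients in that line therefore set values at the floor against induced groups.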

How the data were processed

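Counts per gene were deposited by the authors as raw, unnormalised read counts for 90 samples. According to the submitters' processing notes and the study's methods, reads were quantified with Salmon 0.13.1 against mouse mm10 transcripts and summed to genes with tximport, and use of molecular identifiers is not given in the sources used here. The methods state that outlier libraries were set aside, more of CT26 than of YUMM2.1, without naming them. All 90 samples were therefore kept and no column was left unused (0). No 2 columns were identical, and 90 replicate pairs differed by at least 1.834 chi-square per degree of freedom. The 3-count floors cover counting error only, while SDs and SEs hold the spread between samples.

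Genes passing edgeR's filterByExpr were scaled by TMM and tested with the quasi-likelihood test (edgeR 4.0.16, R 4.3.3) in 1 fit per line over 15 groups of 3, with Benjamini-Hochberg adjustment over all genes and a threshold of 0.05. There were 16 comparisons per line and 2 between the lines. DESeq2 1.42.0, library totals, no filter, the compared groups alone, a replicate block, leaving out each replicate number, leaving out low-depth samples and a minimum log2 fold change of 1 in either direction were alternatives. Over all pairs from different groups, samples sharing a replicate number did not deviate together (median correlation 0.00078 in YUMM2.1 and 0.0054 in CT26). The numbers were therefore not used to pair samples in the main fit. Pairing of cultures within a week was not checked separately.

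CPM was computed over each sample's total count. Where every reference sample had at most 3 counts, a fold is the treated group mean against 3 counts in each reference sample, averaged as CPM. It is a lower bound on the reference side only and leaves out the spread of the treated samples. The members and the gene lists were chosen with earlier results of these data known. Named genes are the 9 members, for each of 4 pathway lists (40 genes) at most 4 called genes per comparison that changed most on the log2 scale, given in both lines and at both times, and the 3 genes closest to B2m, H2-K1 and Nlrc5 by the smaller of the 2 correlations of log2 CPM (prior count 2) over 15 group means. A gene of these lists is not reported here. H2-Q6 and H2-T10 counts were added after the values were seen. Promoters are RefSeq GRCm38.p6 and 3′ ends GRCm38 annotation.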

Additional observations from a re-analysis of the deposited data

Results flagged for a closer look

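The 24 h response to fresh IFNγ differed between cells kept in IFNγ for 3 weeks and naive cells by the interaction test (edgeR quasi-likelihood, 3 samples per group, adjusted over all genes). The naive response started from untreated cells and the 3 week response from cells already in IFNγ. In YUMM2.1 the difference was -1.95 for H2-D1, -2.66 for H2-T22, -3.60 for H2-M3 and -1.25 for B2m in log2. In CT26 it was -2.83 for H2-T22, -1.76 for H2-M3 and -0.82 for B2m. The naive controls of H2-M3 in YUMM2.1 held at most 3 counts, so the size of its difference there is uncertain. The H2-T22 call in both lines and the H2-D1 call in YUMM2.1 were kept in all 9 alternatives. The B2m call was lost without replicate 3 in YUMM2.1 (adjusted p = 0.0761) and in 3 of 9 alternatives in CT26 (adjusted p up to 0.476), and the H2-M3 call in 3 of 9 in YUMM2.1 (adjusted p up to 0.093) and without replicate 3 in CT26 (adjusted p = 0.257).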

How the results depend on the processing

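For the member changes called and for some uncalled ones with values in the text, the alternatives gave 684 values, of which 600 kept their direction and their side of the threshold, 68 fell short of it, 14 passed it newly (9 of H2-T23 and 5 of B2m in the CT26 controls) and 2 reversed. Both reversals were of the between-line difference of Nlrc5 without replicate 3, which became 0.086 at 24 h and 0.90 at 3 weeks (without 1 replicate number at a time, from -3.25 to 0.086 and from -1.73 to 0.90), and the cause was not tested. Of 680 counts of members called higher or lower, 613 stayed within 1.5 times the main count. These include counts that were 0 in both fits, which say little about how stable a call is. With only the compared groups, the members called higher were 3 at naive 24 h in YUMM2.1, 1 at 24 h of rechallenge after 1 week in each line, 0 at 2 h of rechallenge after 3 weeks in YUMM2.1, and in CT26 1 at 3 against 2 weeks, 0 at 3 weeks against naive 24 h (0 lower) and 1 in the controls, while 1 was called lower at 2 weeks and 1 in the controls of YUMM2.1. With DESeq2, 1 was called lower at 2 weeks, 2 higher at 2 h of rechallenge after 3 weeks, 2 higher and 1 lower at 3 weeks against naive 24 h and 1 lower in the controls of YUMM2.1, and 4 higher at 24 h of rechallenge after 1 week and 1 higher in the controls of CT26. Library totals gave 2, 2 and 1, 1 and 4 for the same comparisons from the 2 h rechallenge to the CT26 rechallenge, and 0 lower at 3 weeks against naive 24 h in CT26. Without the filter the YUMM2.1 values were 2, 2 and 1, and CT26 had 4 at 24 h of rechallenge after 1 week, 1 lower at 3 weeks, 1 higher and 1 lower at 3 against 2 weeks and 1 higher in the controls. Without the low-depth samples the counts were 0 at 2 h of rechallenge after 3 weeks in YUMM2.1, and in CT26 1 at 24 h of rechallenge after 1 week, 0 lower at 3 weeks against naive 24 h and 1 higher in the controls. At a minimum log2 fold change of 1 in either direction, 0 were called at 24 h of rechallenge after 2 weeks in either line, and in CT26 3 at naive 24 h, 2 at 1 week, 1 at 24 h of rechallenge after 1 week, 1 at 3 against 2 weeks, and 0 higher and 0 lower at 3 weeks against naive 24 h.

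With the replicate number as a block, CT26 had 4 members called higher at 24 h of rechallenge after 1 week and 1 in the controls of 3 against 0 weeks, and the block moved no other count by over 1.5 times and changed no call of a named gene in the comparisons where it was called. Leaving out 1 replicate number at a time, the members called higher in YUMM2.1 were 1 to 2 at 24 h of rechallenge after 1 week, 0 to 1 after 2 weeks, 0 to 0 at 2 h after 3 weeks and 0 to 1 at 3 weeks against naive 24 h, and 2 to 3 were lower in the 24 h interaction. In CT26 the ranges were 2 to 4 at 1 week, 1 to 2 and 0 to 4 at 24 h of rechallenge after 1 and 2 weeks, 1 to 3 higher and 0 to 1 lower at 3 against 2 weeks, 0 to 3 higher and 0 to 1 lower at 3 weeks against naive 24 h, and 1 to 3 lower in the 24 h interaction. With only the compared groups, the low-count filter removed Nlrc5 (naive 24 h and 1, 2 and 3 weeks in YUMM2.1, 3 weeks in CT26 and naive 24 h between the lines), H2-K1 (1 and 3 weeks in YUMM2.1) and H2-M3 (naive 24 h in YUMM2.1), so no value was had there, which shows the depth limit of these genes. The cause of the other changes was not tested. Of 270 group levels, 12 moved by more than 1 SD when CPM was taken over TMM-scaled totals.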
